A study of Mus musculus with 11 samples.

Results

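Tpbg, Arg1, Fmo2, Vcan and 2810025M15Rik are 5 genes outside the hormone genes chosen by their fold changes: their level was higher in reporter-positive than in reporter-negative cells of one mouse strain and not of the other. They are 5 of the 38283 genes in a count table of sorted mouse duodenal cells, and all 5 were among the 14332 genes with enough counts to be tested. In the Neurod1-cre-eYFP strain (called NeuroD1), a Cre recombinase is expressed from Neurod1, which encodes a transcription factor of endocrine cells, and switches on a yellow fluorescent protein. In the GluVenus strain (called Glu), the Venus protein reports Gcg, the proglucagon gene. Duodenal epithelium of each strain was dissociated and sorted into the positive cells and about as many negative ones, giving 3 positive and 3 negative NeuroD1 libraries, 3 positive Glu libraries and 2 negative ones. The mice were kept on standard chow with no treatment named, and their age is not given in the labels. A Cre reporter also marks cells that used the Neurod1 promoter earlier and no longer do.

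Enteroendocrine cells are scattered hormone-secreting cells of the gut lining, and each subtype makes its own set of peptides or amines. The 5 genes share no pathway. Tpbg encodes trophoblast glycoprotein (5T4), a leucine-rich repeat protein of the cell surface that dampens canonical Wnt signalling and takes part in chemokine signalling through Cxcr4. Arg1 encodes the cytosolic arginase that splits arginine into ornithine and urea, best known from hepatocytes and from alternatively activated macrophages. Fmo2 encodes a flavin-containing monooxygenase, an enzyme of the endoplasmic reticulum that oxygenates nitrogen and sulfur atoms of small molecules. Vcan encodes versican, a large chondroitin sulfate proteoglycan that binds hyaluronan in the extracellular matrix. 2810025M15Rik is a processed pseudogene that is transcribed.

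Libraries held 2279595 to 5722381 counts. Levels are CPM, the counts relative to library size, scaled by the trimmed mean of M values (TMM), and log2 fold changes come from edgeR and stand with their SE. Nothing in the labels says that each library number is another animal, so a p-value measures only the spread between these libraries. The strain cannot be told apart from the authors' counting. The mitochondrial rRNA genes mt-Rnr1 and mt-Rnr2 took 27.5% to 33.9% of the counts in 5 of 6 NeuroD1 libraries and both were listed at 0 in NeuroD1_negative_6360 and in the 5 Glu libraries. Within the NeuroD1 strain mt-Rnr2 had 539649 to 888708 counts in the 3 positive libraries and was listed at 0 in the 3 negative ones, so what was listed also differed between the cells compared. Without these 2 genes the members' log2 fold changes in the NeuroD1 comparison were 3.0 for Fmo2 to 5.46 for Tpbg, and beyond this the part of the listing in the results was not tested. NeuroD1_negative_6360 stood apart from its replicates, with a chi-square statistic over genes, divided by its degrees of freedom, of 127 and 135, where those 2 differed by 17.7. Without the rRNA genes these values were 11.3, 14.4 and 17.6, and without that library the members' log2 fold changes in the NeuroD1 comparison were 2.83 for Fmo2 to 5.47 for Tpbg. Scaling by library totals in place of TMM moved the median of all genes from 0.02 to -0.28 in the NeuroD1 comparison and from 0.12 to -0.19 in the Glu comparison.

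The sort markers followed the labels. Neurod1 was at 487 ± 80.9 CPM in NeuroD1 positive and 42.5 ± 7.09 in NeuroD1 negative cells (mean ± SD, n = 3 each). It was also high in Glu positive cells, at 461 ± 249 CPM (n = 3), against 22.2 ± 9.94 in Glu negative cells (n = 2). Gcg was at 35685 ± 22090 CPM in Glu positive cells and at 11301 ± 934 in NeuroD1 positive cells. Both positive populations thus held Neurod1 and Gcg transcripts. In bulk libraries, fewer cells of a type and less RNA per cell cannot be told apart.

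Tpbg lies on the plus strand at chr9:85842380-85847040 (GRCm38, GENCODE vM21). The libraries NeuroD1_positive_6360, NeuroD1_positive_6361 and NeuroD1_positive_6362 held 177, 140.0 and 120.2 CPM. In the negative libraries of those numbers Tpbg was at 3.17, 2.51 and 3.93 CPM. In the Glu strain the libraries Glu_positive_4665, Glu_positive_5160 and Glu_positive_5254 held 0.142, 1.03 and 0.910 CPM, which is 7 counts in all, and Glu_negative_4665 and Glu_negative_5254 held 1.96 and 1.33 CPM. Values of the other members follow this order of libraries. All 3 NeuroD1 positive libraries thus stood far above the other 8, while the Glu positive libraries were the lowest and did not overlap the Glu negative ones. Means were 146 ± 29.1, 3.20 ± 0.710, 0.695 ± 0.483 and 1.64 ± 0.448 CPM (SD), with the NeuroD1 strain first and the positive cells first in each strain.

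Arg1 lies on the minus strand at chr10:24915221-24927484. Its level was nearly the same in the 3 NeuroD1 positive libraries, at 34.5, 37.8 and 33.3 CPM, with a coefficient of variation of 6.60%. The NeuroD1 negative libraries held 2.47, 2.51 and 3.49 CPM. The Glu positive libraries held 0.997, 2.07 and 0.910 CPM and the Glu negative libraries 9.94 and 7.52 CPM. Arg1 was therefore high in NeuroD1 positive cells, intermediate in Glu negative cells and low in both other groups, and the Glu negative libraries overlapped none of the other groups. Means were 35.2 ± 2.32, 2.82 ± 0.580, 1.32 ± 0.644 and 8.73 ± 1.72 CPM in the same order of groups.

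Fmo2 lies on the minus strand at chr1:162874317-162898726. The NeuroD1 positive libraries held 73.4, 75.9 and 98.8 CPM and the NeuroD1 negative ones 7.40, 13.6 and 9.60 CPM. The Glu positive libraries held 2.85, 5.86 and 7.58 CPM and the Glu negative ones 11.6 and 13.5 CPM. Fmo2 was the member with the highest remaining level in NeuroD1 negative cells relative to the positive cells, at 12.3% of the positive mean, where Tpbg kept 2.2%. The Glu positive libraries lay below both Glu negative libraries, and the negative libraries of the 2 strains overlapped.

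Vcan lies on the minus strand at chr13:89655312-89742509. The NeuroD1 positive libraries held 193, 124 and 108 CPM and the NeuroD1 negative ones 12.3, 10.5 and 15.3 CPM. The Glu positive libraries held 9.68, 23.1 and 14.6 CPM and the Glu negative ones 17.6 and 20.8 CPM. Vcan is the only 1 of the 5 whose Glu positive and Glu negative libraries overlapped. Its NeuroD1 positive libraries spread 1.79-fold from lowest to highest, against 1.14-fold for Arg1.

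2810025M15Rik lies on the plus strand at chr1:157412352-157420236. The NeuroD1 positive libraries held 49.9, 40.4 and 27.5 CPM and the NeuroD1 negative ones 1.94, 3.01 and 2.62 CPM. The Glu positive libraries held 1.57, 0 and 0.607 CPM and the Glu negative ones 3.22 and 3.32 CPM. Its values in the Glu strain rest on 13 counts in the positive and 38 counts in the negative cells. The 3 Glu positive libraries lay below the lowest NeuroD1 negative library.

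**Figure D1:**
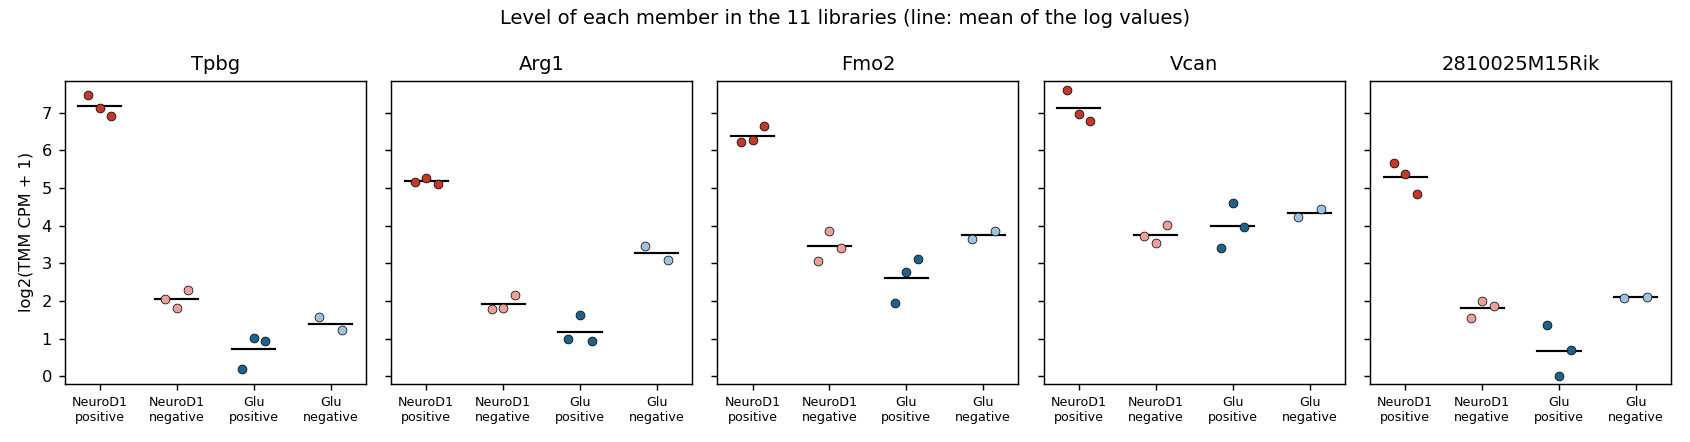
Level of each of the 5 genes in the 11 libraries, as log2(TMM CPM + 1) on the vertical axis, with 1 point per library, the 4 groups side by side and a line at the mean of the log values. The NeuroD1 positive libraries (Tpbg 120.2 to 177 CPM, Arg1 33.3 to 37.8 CPM) lie above the other 8 libraries for each gene.

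The stretches before the start sites are shown as a description for the genes that the RefSeq promoter table (GRCm38.p6) holds, which are 3 of the 5. Each window is the 250 bases before the start, and capitals mark GATAA on either strand (TTATC on the other strand), a motif chosen after the windows were seen. The Tpbg window shown is chr9:85842130-85842379 on the plus strand, and the Fmo2 window shown is chr1:162898759-162899008 on the minus strand. The table holds another start site for each of these 2 genes, and those windows are not shown.
Tpbg: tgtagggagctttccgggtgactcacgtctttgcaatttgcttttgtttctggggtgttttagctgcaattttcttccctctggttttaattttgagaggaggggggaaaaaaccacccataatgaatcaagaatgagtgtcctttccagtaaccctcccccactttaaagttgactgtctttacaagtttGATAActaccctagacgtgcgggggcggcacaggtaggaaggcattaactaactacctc
Fmo2: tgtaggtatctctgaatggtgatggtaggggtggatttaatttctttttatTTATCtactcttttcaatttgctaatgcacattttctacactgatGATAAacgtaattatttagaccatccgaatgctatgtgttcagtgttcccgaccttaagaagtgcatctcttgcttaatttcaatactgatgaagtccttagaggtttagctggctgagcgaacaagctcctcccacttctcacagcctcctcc
The Tpbg window shown holds 1 GATAA match, which begins 59 bases before the start. The Fmo2 window shown holds 2, at 199 and 154 bases before it. Of the other windows, that of Tpbg (chr9:85842602-85842851, plus strand) holds 1 match, 165 bases before its start, and that of Fmo2 (chr1:162898494-162898743, minus strand) holds 0. Of 32817 RefSeq windows of that length, 22.6% hold this motif. None of these 4 windows holds the E-box CANNTG, the class of site that Neurod1 and related factors bind, which 66.2% of windows hold, or its form CAGATG, which 14.5% hold. The Vcan window holds 0 GATAA matches and 1 E-box. The stretch around that E-box, chr13:89742674-89742703 on the minus strand, is shown with the match in capitals.
Vcan: tgggtgggaaggCAGTTGtttgagactgca
This match begins 179 bases before the start. A match says only that the letters are there, and its absence says nothing of a factor.

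Per kilobase of exon, the level in NeuroD1 positive cells was highest for Tpbg at 38.1 ± 7.59 CPM per kb (SD, n = 3). 2810025M15Rik followed at 27.9 ± 7.97 CPM per kb, and Arg1 and Fmo2 came next at 15.8 ± 1.04 and 14.7 ± 2.49. Vcan, with the longest exon sequence of the 5 (14462 bases, against 3828 for Tpbg), was lowest at 9.81 ± 3.12 CPM per kb. Neighbours in this order lay within the sum of their SDs, except 2810025M15Rik and Arg1. Among all genes tested, 94.5% had a lower CPM than Tpbg in NeuroD1 positive cells and 4.85% in Glu positive cells, and for Arg1 these shares were 73.4% and 8.55%.

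The fitted difference between positive and negative NeuroD1 cells was a log2 fold change of 5.49 ± 0.55 for Tpbg, a 45.0-fold higher level. It was 3.98 ± 0.74 for 2810025M15Rik, 3.64 ± 0.61 for Arg1, 3.48 ± 0.45 for Vcan and 3.04 ± 0.50 for Fmo2. These values chose the genes and are given as a description, with no test: 5 of 5 passed the threshold of an adjusted p under 0.05 in the higher direction, as did 6.57% of all genes tested. The NeuroD1 positive libraries lay wholly above the NeuroD1 negative ones for 5 of 5 (18.3% of all genes) and above all 8 others for 5 of 5 (4.54% of all genes), from which nothing is read. In the Glu comparison the values were -2.74 ± 0.65 for Arg1, -1.93 ± 0.79 for 2810025M15Rik, -1.46 ± 0.68 for Tpbg, -1.23 ± 0.53 for Fmo2 and -0.30 ± 0.46 for Vcan. None of the 5 passed as higher there (4.22% of all genes did) and Arg1 passed as lower (2.41% of all genes did). The Glu positive libraries lay wholly below the Glu negative ones for 4 of the 5, as for 16.5% of all genes tested.

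**Figure D2:**
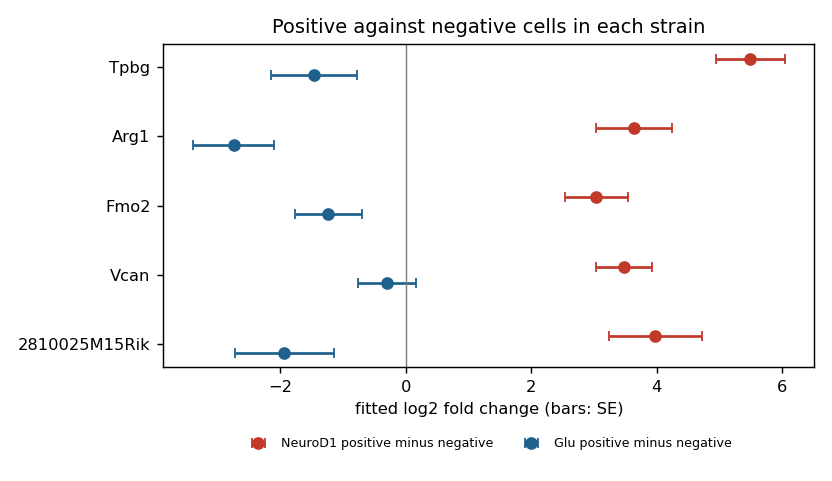
Fitted log2 fold change of positive over negative cells (horizontal axis, bars give the SE) for the 5 genes in the NeuroD1 strain (red) and the Glu strain (blue). The NeuroD1 values run from 3.04 for Fmo2 to 5.49 for Tpbg and the Glu values from -2.74 for Arg1 to -0.30 for Vcan.

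The difference of these 2 comparisons, on the log2 scale, was 6.95 ± 0.85 for Tpbg, 6.38 ± 0.89 for Arg1, 5.90 ± 1.07 for 2810025M15Rik, 4.27 ± 0.72 for Fmo2 and 3.77 ± 0.62 for Vcan. All 5 passed the threshold, as did 0.0907% of all genes in that direction, and none as lower (0.0209% of all genes), and the choice of the genes rests on this same contrast. With the limma voom method 3 of the 5 passed. Without NeuroD1_positive_6360 or NeuroD1_negative_6360, 2 of the 5 did, and without NeuroD1_positive_6362 or NeuroD1_negative_6362, 3 did. The share of all genes called in these fits is not given here, so nothing is read from these counts. No count is given without a Glu negative library, which leaves that group without replicates. Over all alternatives the difference ran from 6.25 to 7.44 for Tpbg, 6.16 to 6.80 for Arg1 and 5.43 to 7.21 for 2810025M15Rik. It ran from 3.93 to 4.62 for Fmo2 and from 3.48 to 4.15 for Vcan.

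Set directly against Glu positive cells, NeuroD1 positive cells held more of each gene, from a log2 difference of 3.18 ± 0.44 for Vcan to 7.88 ± 0.64 for Tpbg. All 5 passed as higher, beside 3.18% of all genes. This contrast uses the libraries that chose the genes and adds no test. Between the negative populations none of the 5 passed in edgeR, where 0.363% of all genes passed as higher and 0.126% as lower. The differences of NeuroD1 from Glu negative cells were 0.93 ± 0.60 for Tpbg, -0.32 ± 0.53 for Fmo2, -0.40 ± 0.77 for 2810025M15Rik, -0.59 ± 0.46 for Vcan and -1.63 ± 0.63 for Arg1. The Arg1 values in Glu negative cells, 3.09-fold those in NeuroD1 negative cells by their means, did not overlap the latter. NeuroD1 negative libraries lay wholly below the Glu negative ones for 3 of the 5 (Arg1, Vcan and 2810025M15Rik), as for 16.5% of all genes, and wholly above them for Tpbg, as for 15.3% of all genes.

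Marker lists of non-epithelial cells that the sort could hold had their lowest mean sums in the NeuroD1 positive libraries for macrophages, lymphoid cells, fibroblasts, smooth muscle and endothelium. Of 13 macrophage and monocyte markers, 12 were detected in NeuroD1 positive cells and Ly6c2 was at 0, with a summed level of 13.2 to 17.4 CPM per library. The negative libraries of that strain summed to 127 to 214 CPM, and in the Glu strain the sum was 16.1 to 46.9 CPM for positive and 190 to 250 CPM for negative libraries. Arg1 in the Glu strain thus moved with this list, being low in the positive and higher in the negative cells, and the part of these cells in that difference was not tested. In the NeuroD1 strain Arg1 moved the opposite way to the list. The defining macrophage genes Csf1r and Adgre1 were at 0.589 ± 0.202 and 0.193 ± 0.184 CPM in NeuroD1 positive cells (n = 3). C1qa, chosen after its values were seen, was at 3.0 ± 2.43 CPM there and at 0.181 CPM or less on average in each of the other groups. Markers of group 2 innate lymphoid cells, which also make Arg1, summed to 0 to 3.43 CPM in NeuroD1 positive and 4.80 to 19.7 CPM in NeuroD1 negative libraries. In the Glu strain they summed to 12.4 to 32.2 CPM in positive and 38.0 to 45.1 CPM in negative libraries. Il13 was at 0 in NeuroD1 positive cells, and Il5 was at 0 in every group.

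Fibroblast markers bear on Vcan, which stromal cells also make. All 8 were detected in every group, and their sum was lowest in NeuroD1 positive libraries, at 35.6 to 74.0 CPM against 150 to 235 CPM in the negative ones. In the Glu strain the positive libraries summed to 59.7 to 216 CPM and the negative ones to 266 to 415 CPM. Smooth muscle markers (6 of 6 detected) had sums of 15.3 to 51.3 CPM in the positive and 103 to 267 CPM in the negative libraries of the NeuroD1 strain, and endothelial markers (7 of 7) 14.7 to 35.0 and 41.5 to 84.2 CPM. The 7 enteroendocrine markers had sums of 40755 to 59403 CPM in the positive and 1949 to 2337 CPM in the negative libraries of the NeuroD1 strain. In the Glu strain they summed to 10091 to 28305 CPM in positive and 1002 to 1197 in negative libraries. The 5 genes themselves summed to 388 to 528 CPM in NeuroD1 positive and 27.3 to 34.9 CPM in NeuroD1 negative libraries, and to 15.2 to 32.0 CPM in Glu positive and 44.4 to 46.4 CPM in Glu negative ones. The sum of the endocrine markers was thus higher in positive than in negative cells of both strains. The 5 genes, chosen for this pattern, were higher in positive cells of the NeuroD1 strain only. Chgb had a mean of 12448 CPM in Glu positive cells, where the sum had a mean of 17681 CPM. Chga had a mean of 132 CPM in Glu positive and 22.1 CPM in Glu negative cells. In the NeuroD1 strain its means were 2225 CPM in positive and 130 CPM in negative cells. Chga in Glu positive cells was thus near its level in NeuroD1 negative cells. Enteric neuron and glia markers reached 1.10 CPM in NeuroD1 positive libraries, with 5 of 6 at 0.

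**Figure D3:**
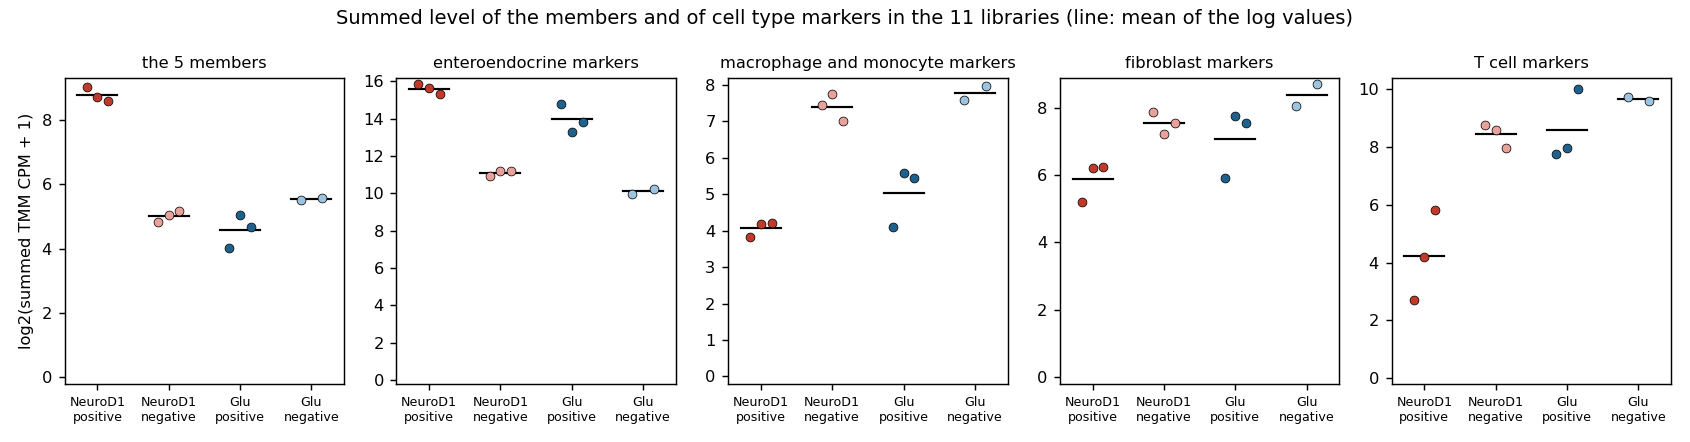
Summed level of the 5 genes and of marker lists for enteroendocrine cells, macrophages and monocytes, fibroblasts and T cells in each of the 11 libraries, as log2(summed TMM CPM + 1) with a separate vertical scale per panel and a line at the mean of the log values. The macrophage markers sum to 13.2 to 17.4 CPM in NeuroD1 positive libraries, where the 5 genes sum to 388 to 528 CPM.

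The other genes of the members' pathways were counted on 4 lists of 105 genes, of which 82 were tested. None of the lists contains a member. In the NeuroD1 comparison 7 of 82 passed as higher and 13 as lower, beside 6.57% and 7.61% of all genes. In the Glu comparison 1 passed as higher and 3 as lower, beside 4.22% and 2.41% of all genes. No list gene passed in either direction for the difference between the strains in edgeR, beside 0.0907% of all genes as higher and 0.0209% as lower. Of the list genes 3 higher and 6 lower had an unadjusted p under 0.05, and DESeq2 and limma voom also called 0.

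Of the arginine and polyamine genes 26 of 28 were tested, and 3 rose and 5 fell in NeuroD1 positive cells, with a median log2 fold change of -0.40 against 0.02 for all genes. Arg2, the mitochondrial arginase and the closest relative of Arg1, fell from 148 ± 26.4 CPM in negative to 21.4 ± 14.2 CPM in positive cells (log2 fold change -2.80 ± 0.50, edgeR adjusted p = 0.000868). Otc, which builds citrulline from ornithine in mitochondria, fell by 2.27 ± 0.51 on the log2 scale (adjusted p = 0.00509). Ass1, the argininosuccinate synthase that returns citrulline toward arginine, rose from 8.90 ± 1.79 to 41.5 ± 2.63 CPM (2.22 ± 0.54, adjusted p = 0.00865). These 3 calls held with each library left out in turn. Enterocyte markers (5 of 5 detected) summed to 2210 to 2973 CPM in NeuroD1 positive and 2357 to 7339 CPM in NeuroD1 negative libraries. In the Glu strain they summed to 2913 to 3758 CPM in positive and 1579 to 2037 CPM in negative libraries. The part of enterocytes in these calls was not tested. In Glu cells Arg2 was at 50.6 ± 24.7 CPM in positive and 77.6 ± 25.4 in negative cells (-0.62, adjusted p = 0.507). The Arg2 difference between the strains was -2.18 ± 0.72 (adjusted p = 0.279). Per kilobase of exon, Arg2 was at 104 ± 18.5 and Arg1 at 1.27 ± 0.260 CPM per kb in NeuroD1 negative cells. In NeuroD1 positive cells Arg2 was at 15 ± 9.92 and Arg1 at 15.8 ± 1.04 CPM per kb, but the Arg2 libraries spread from 9.32 to 37.0 CPM, with NeuroD1_positive_6361 the highest.

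Further calls on this list, named after their values were seen, were the cationic amino acid transporter Slc7a2 (1.95 ± 0.55, adjusted p = 0.0224) and Gatm, which makes guanidinoacetate from arginine (1.74 ± 0.57, adjusted p = 0.0467), as higher. Oat, the ornithine aminotransferase (-1.49 ± 0.32, adjusted p = 0.00356), and the transporter subunits Slc7a7 (-2.04 ± 0.51, adjusted p = 0.0105) and Slc3a2 (-1.44 ± 0.37, adjusted p = 0.0122) were lower. Gatm lost its call without any 1 of the 6 NeuroD1 libraries other than NeuroD1_positive_6360, and without either Glu negative library (1.54 to 1.86). It was also lost with RLE scaling (1.67, adjusted p = 0.0561), library totals (1.46), no filter (1.73), limma voom (1.73), the replicate block (1.62) and without mt-Rnr1 and mt-Rnr2 (1.70). Slc7a2 lost it without NeuroD1_positive_6361 (1.54), NeuroD1_negative_6360 (1.76) or NeuroD1_negative_6361 (1.93), and with library totals (1.66, adjusted p = 0.0628). Slc7a7 lost it without NeuroD1_positive_6362 (-1.90) or NeuroD1_negative_6362 (-1.73), and Slc3a2 without NeuroD1_positive_6360 (-1.37), NeuroD1_positive_6361 (-1.42) or NeuroD1_negative_6362 (-1.32). Oaz1, the antizyme that restrains polyamine synthesis, did not pass (0.33 ± 0.31, adjusted p = 0.553). Cps1, which starts the urea cycle, was at 360.0 ± 165 CPM in NeuroD1 positive and 655 ± 120.2 in NeuroD1 negative cells and also did not pass (-0.86 ± 0.33, adjusted p = 0.0949). It passed as lower with library totals (-1.19), limma voom (-1.04), the replicate block (-0.96), the compared groups only (-0.94) and without NeuroD1_positive_6360 (-1.25).

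Of the flavin monooxygenase relatives of Fmo2, 3 of 6 were tested. Fmo1, whose gene lies 7.71 kb from Fmo2 on the same strand, was at 92.2, 110.3 and 83.9 CPM in NeuroD1 positive and at 22.9, 7.53 and 6.98 CPM in NeuroD1 negative libraries. It rose by a log2 fold change of 2.89 ± 0.55 (adjusted p = 0.00134), a size like that of Fmo2 at 3.04 ± 0.50. In Glu cells the 2 genes had opposite signs: Fmo1 was at 26 ± 12.5 CPM in positive and 10.6 ± 3.17 in negative cells (1.28 ± 0.60, adjusted p = 0.203), where Fmo2 was lower in positive cells. The difference between the strains was 1.61 ± 0.77 for Fmo1 (adjusted p = 0.462). Fmo4 fell in NeuroD1 positive cells from 10.7 ± 4.95 to 0.791 ± 0.690 CPM (-3.63 ± 1.03, adjusted p = 0.0230). That call was lost without any 1 NeuroD1 positive library or without NeuroD1_negative_6362 (-4.18 to -3.12). Fmo5, at 165 ± 5.51 CPM in NeuroD1 positive and 140.1 ± 59.3 in NeuroD1 negative cells, did not pass (0.23 ± 0.36, adjusted p = 0.756). Fmo6 and Fmo9 were at 0 in every library.

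Of the versican and hyaluronan matrix genes 28 of 43 were tested, and 2 rose and 4 fell in NeuroD1 positive cells, with a median of 0.14. Adamts5, a protease that cleaves versican, rose from 2.03 ± 1.48 to 33.6 ± 11.1 CPM (3.92 ± 1.04, adjusted p = 0.0159). It was at 14.2 ± 12.8 CPM in Glu positive and 5.35 ± 6.19 in Glu negative cells (1.44, adjusted p = 0.447). Fbln1, a fibulin of the matrix, fell from 54.4 ± 36.2 to 9.62 ± 4.56 CPM (-2.50 ± 0.59, adjusted p = 0.00737). Chst12, a chondroitin sulfotransferase, passed as lower (adjusted p = 0.0296) with 2 counts in NeuroD1 positive and 55 in NeuroD1 negative cells, where 1 library held 0. Cd44, a hyaluronan receptor (1.22 ± 0.39, adjusted p = 0.0413), and, as lower, Chsy1 (-2.29, adjusted p = 0.0279) and Tnc (-2.37, adjusted p = 0.0470) were the other calls, named after their values were seen. Fibroblast markers, given above, were lower in the same cells as Fbln1, and their part in that result was not tested.

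The calls of this list depended on single libraries and on the method. Adamts5 lost its call without NeuroD1_positive_6362 (3.63), NeuroD1_negative_6361 (3.76) or NeuroD1_negative_6362 (3.60), and Fbln1 without NeuroD1_negative_6362 (-1.81). Chst12 lost it without any 1 NeuroD1 positive library or without NeuroD1_negative_6361 (-5.57 to -2.63), Tnc without any 1 NeuroD1 library or either Glu negative one (-2.51 to -2.11), and Chsy1 without any 1 NeuroD1 library but NeuroD1_negative_6362 (-2.62 to -1.89). Cd44 lost it without any 1 NeuroD1 library but NeuroD1_negative_6361 and without Glu_negative_5254 (1.10 to 1.36). By method, calls were lost for Chst12 with limma voom (-2.79) and the replicate block (-4.12), for Tnc with no filter (-2.39), limma voom (-2.27) and the block (-2.32), for Chsy1 with limma voom (-2.41), and for Cd44 with RLE scaling (1.16), library totals (0.96) and DESeq2 (1.16). No gene of the list passed in the Glu comparison in edgeR, where 3 higher and 4 lower had an unadjusted p under 0.05, DESeq2 called 1 higher and limma voom 1 lower. Versican's closest relatives were low: Acan had 6 counts in NeuroD1 positive cells and 0 in the other groups, Bcan was at 0 in every library, and Ncan was at 2.62 ± 2.08 CPM in NeuroD1 positive and 2.45 ± 0.542 CPM in NeuroD1 negative cells (0.12 ± 1.02, adjusted p = 0.961). The chondroitin sulfotransferase gene Chst11 did not pass (0.15 ± 0.54, adjusted p = 0.908). Chst15, another such gene, did not pass in the NeuroD1 comparison (-1.89 ± 1.05, adjusted p = 0.276), but passed as lower there with no filter (-1.92), the compared groups only (-1.98) and without Glu_positive_5254 (-1.89). Glu_positive_5254 held 741 CPM of Chst15, and the lowest Glu positive library held 6.55. Its Glu comparison (2.82 ± 1.2, adjusted p = 0.166) passed with no filter (2.78) and without Glu_positive_4665 (3.39), and its difference between the strains passed with no filter (-4.70, edgeR adjusted p = 1.08e-08) against an adjusted p of 0.285 with the filter.

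Of the genes around trophoblast glycoprotein and Wnt signalling 25 of 28 were tested, and 1 rose and 3 fell in NeuroD1 positive cells, with a median of -0.06. Wnt3, a canonical Wnt ligand, rose from 0.467 ± 0.440 to 11.3 ± 0.846 CPM (4.44 ± 1.12, adjusted p = 0.0112), a call lost without NeuroD1_negative_6360 (4.52, adjusted p = 0.0552). Cxcr4, the chemokine receptor, fell from 18.8 ± 15.8 to 0.970 ± 0.549 CPM (-4.21 ± 0.89, adjusted p = 0.00326), a call lost with limma voom (-3.66, adjusted p = 0.0754). It also fell in Glu positive cells (-3.48, adjusted p = 0.0163), a call lost without Glu_negative_5254 (-2.09). T cell markers (5 of 5 detected) were also lower in positive NeuroD1 libraries, with sums of 5.51 to 55.3 CPM against 247 to 434 CPM. In the Glu strain these sums were 214 to 1031 CPM for positive and 774 to 855 CPM for negative libraries, and the part of these cells in the Cxcr4 result was not tested. Wnt11 passed as lower with 1 count in NeuroD1 positive and 34 in NeuroD1 negative cells (adjusted p = 0.0477), a call lost without any 1 NeuroD1 library, without Glu_positive_5160 or without Glu_negative_5254 (-7.07 to -4.20), and with limma voom (-3.99) or the replicate block (-4.99). Fzd5, a Wnt receptor named after its values were seen, passed as lower (-1.15, adjusted p = 0.0456) and lost its call without any 1 NeuroD1 library or either Glu negative one (-1.22 to -1.06), and with limma voom (-1.14). Tpbgl, the relative of Tpbg, had 1 count in NeuroD1 positive and 10 in NeuroD1 negative cells (adjusted p = 0.314). Ctnnb1, the beta-catenin gene, was at 235 ± 41.8 CPM in NeuroD1 positive and 236 ± 20.0 CPM in NeuroD1 negative cells (-0.01 ± 0.28, adjusted p = 0.995). The Wnt co-receptor Lrp6 did not pass there (0.77 ± 0.36, adjusted p = 0.171), but did so without Glu_positive_5254 (0.77, adjusted p = 0.0442) and with the compared groups only (0.69, adjusted p = 0.0404).

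In the Glu comparison the calls on this list were Lrp6 as higher (1.55 ± 0.42, adjusted p = 0.0309) and Cxcr4 and Wnt11 as lower. Lrp6 lost its call without Glu_positive_5254 (1.02), Glu_negative_4665 (1.70) or Glu_negative_5254 (1.42), and with scaling by library totals (1.14) or the compared groups only (1.5). Wnt11 had 2 counts in Glu positive and 65 in Glu negative cells, with Glu_negative_5254 at 14.2 CPM and the other negative library at 0.140 CPM. Its call was lost in 10 of the 11 fits that left out 1 library (-5.84 to 0.13), and with limma voom (-2.45) or the replicate block (-4.20). Slc3a2 of the arginine list also fell in Glu positive cells (-1.66 ± 0.40, adjusted p = 0.0175), which was lost without Glu_negative_4665 (-1.04) and with the compared groups only (-1.71).

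**Figure D4:**
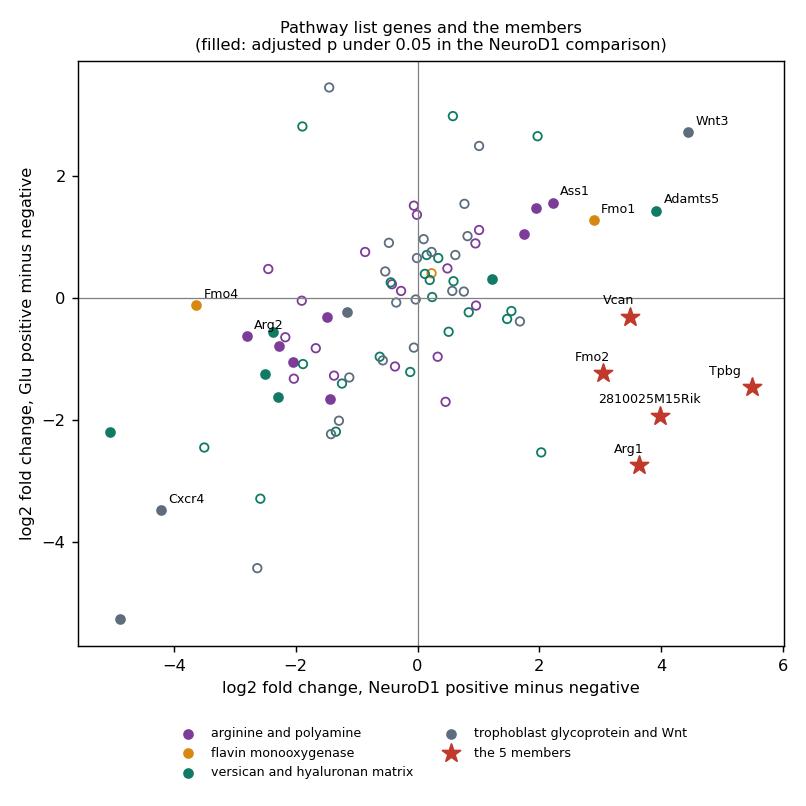
Log2 fold change of positive over negative cells in the NeuroD1 strain (horizontal axis) and the Glu strain (vertical axis) for the 82 pathway list genes tested (circles, filled where the adjusted p in the NeuroD1 comparison was under 0.05) and the 5 members (stars). The members sit at the lower right, at 3.04 to 5.49 on the horizontal and -2.74 to -0.30 on the vertical axis, while Fmo1, Ass1, Adamts5 and Wnt3 are above 0 on both.

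Neighbouring genes were looked at for the same difference. Within 500 kb of start sites, 1 gene was tested near Tpbg, 6 near Arg1, 7 near Fmo2, 3 near Vcan and 4 near 2810025M15Rik. Among these 21, Fmo1 and Rasal2 passed as higher in the NeuroD1 comparison and Fmo4 as lower. Of all genes tested, 6.57% passed as higher and 7.61% as lower, and nothing is read from the count of neighbours. Near Arg1, Med23 lies 1.54 kb away and did not pass (0.47 ± 0.54, adjusted p = 0.657). The tested neighbours of Tpbg and Vcan also did not pass: Ibtk had 0.49 ± 0.35 (adjusted p = 0.423) and Xrcc4 0.92 ± 0.64 (adjusted p = 0.408). Prrx1, 346 kb from Fmo2, did not pass (-4.51 ± 1.5, adjusted p = 0.0510), with 2 counts in NeuroD1 positive and 48 in NeuroD1 negative cells. It passed as lower with library totals (-4.74), no filter (-4.52), the stricter filter (-4.51), DESeq2 (-4.82) and the replicate block (-4.83). It also passed without mt-Rnr1 and mt-Rnr2 (-4.55) and in 4 fits that left out 1 library (-4.92 to -4.48). Hapln1, which encodes a link protein of the versican matrix beside Vcan, had 0 counts in NeuroD1 positive and at most 5 in any other group.

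Rasal2, which encodes a Ras GTPase-activating protein, overlaps 2810025M15Rik on the opposite strand, with start sites 0.24 kb apart. It was at 188, 204 and 143 CPM in NeuroD1 positive and at 20.6, 25.6 and 27.1 CPM in NeuroD1 negative libraries, with no overlap. It rose by 2.87 ± 0.41 on the log2 scale (adjusted p = 0.000108). In Glu cells it was at 15.4 ± 1.65 CPM in positive and 13.7 ± 8.82 in negative cells (0.18 ± 0.44, adjusted p = 0.850). The difference between the strains was 2.69 ± 0.59, with an adjusted p of 0.0869 in edgeR, 0.00610 in DESeq2 and 0.00920 in edgeR without the low-count filter. Over all alternatives that p ran from 0.00610 to 0.519. A 244-base stretch of the 2810025M15Rik transcript is identical to Rasal2 on the other strand. The use of strand in the counting is not given in the sources used here, so reads from that stretch cannot be told apart.

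The annotation holds other overlaps and copies, and how many reads they share was not measured. The 2810025M15Rik transcript is 78.1% identical to Rpl37a, a ribosomal protein gene, over 270 bases and 91.9% identical to the pseudogene Gm38213 over 173 bases, so its level is uncertain where reads were shared. Tpbg overlaps the antisense transcript 9330154J02Rik, which had 23 counts in NeuroD1 positive, 1 in NeuroD1 negative and 0 in Glu libraries, against 1417 counts of Tpbg in NeuroD1 positive cells. Vcan overlaps the antisense gene Gm4117, which was at 69.2 ± 20.5 CPM in NeuroD1 positive and 59.4 ± 16.4 in NeuroD1 negative cells and did not pass (0.22 ± 0.44, adjusted p = 0.818).

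**Figure D5:**
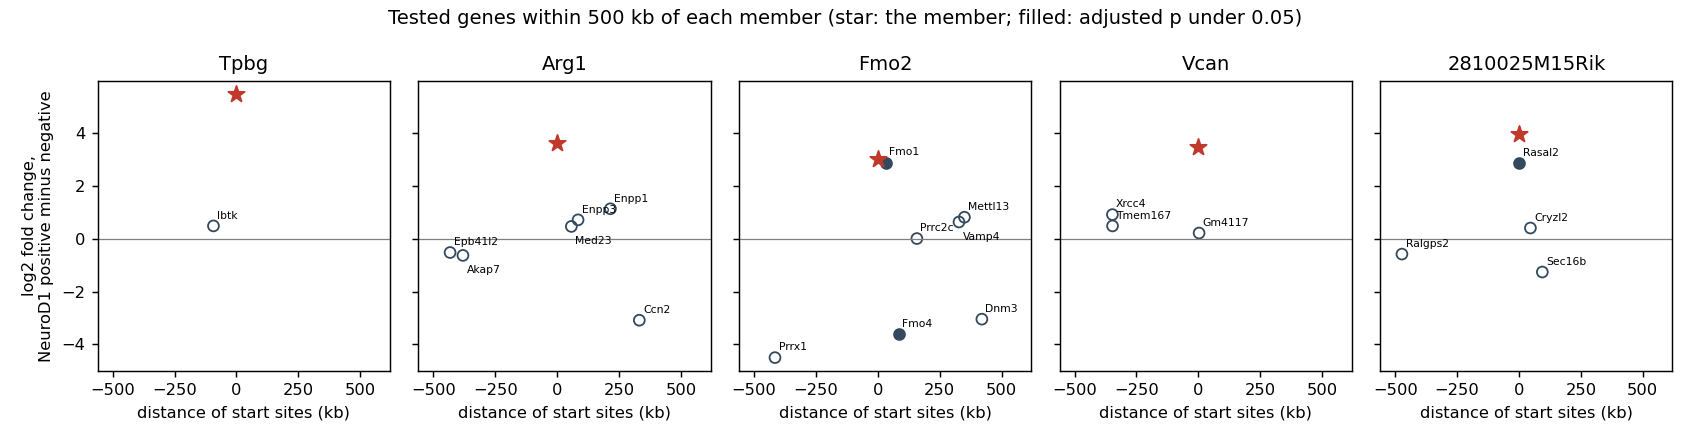
Log2 fold change of NeuroD1 positive over negative cells (vertical axis) of the tested genes within 500 kb of each of the 5 genes, by the distance of start sites in kb (horizontal axis). Stars are the 5 genes and filled circles have an adjusted p under 0.05: Fmo1 (2.89) and Fmo4 (-3.63) beside Fmo2, and Rasal2 (2.87) beside 2810025M15Rik.

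The genes most like each member over the 11 libraries were named by the highest Pearson r of log2(TMM CPM + 1). The values are descriptive, since all points share the same libraries and their depth, and the separation of the NeuroD1 positive libraries carries much of each r. Between the members themselves r ran from 0.895 to 0.961, a likeness that follows from choosing them by a shared pattern. Lmx1a, a LIM homeobox transcription factor known from enterochromaffin cells, was most like Tpbg (r = 0.986) and second for 2810025M15Rik (0.951). It was at 125 ± 32.7 CPM in NeuroD1 positive, 3.78 ± 1.74 in NeuroD1 negative, 0.460 ± 0.134 in Glu positive and 0.903 ± 0.287 in Glu negative cells. The islet amyloid peptide gene Iapp followed for Tpbg (0.977). The rule also returned mt-Rnr2 for Tpbg (0.977), which is listed at 0 in 8 of the 11 libraries, and no likeness is read from it.

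For Arg1 the most alike genes were the receptor phosphatase Ptprs (0.951), the GLP-1 receptor gene Glp1r (0.935) and Kank1 (0.923). Ptprs, Glp1r and Kank1 all shared the order of Arg1 among the group means. Glp1r was at 65.6 ± 25.7 CPM in NeuroD1 positive and 11 ± 8.03 in Glu negative cells. It was at 4.87 ± 2.15 CPM in NeuroD1 negative and 1.87 ± 1.88 in Glu positive cells, and its libraries of the 2 negative groups overlapped. For Fmo2 they were Reg4, a secreted lectin-like protein of gut endocrine cells (0.952), Afp, alpha-fetoprotein (0.951), and the homeobox gene Hhex (0.947). For Vcan they were Reg4 (0.975), the albumin gene Alb (0.974) and the lysosomal protease gene Ctsl (0.974). Afp (0.960) was first for 2810025M15Rik, and the actin-binding protein gene Tagln2 (0.948) came after Lmx1a. In NeuroD1 positive cells Reg4 was at 3194 ± 782 CPM, and its means in the other 3 groups were 60.6 to 64.6 CPM. Hhex, known from somatostatin-producing cells, was at 63.5 ± 31.6 CPM in NeuroD1 positive and at 1.49 ± 0.803 in Glu positive cells.

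Sst, Tph1 and Tac1, which mark other hormone lineages, separated the 2 positive populations in the same direction as the members. They were named outside the rule given below, and Sst and Tac1 are among the genes that passed for the difference between the strains. Sst, the somatostatin gene, was at 26119.5 ± 11844 CPM in NeuroD1 positive and 137 ± 45.4 in Glu positive cells (n = 3 each). Tph1, the serotonin-synthesis gene of enterochromaffin cells, was at 563 ± 251 and 34.1 ± 21.9 CPM, and Tac1, a tachykinin gene, at 262 ± 129 and 2.89 ± 2.00 CPM. Tph1 was also higher in Glu positive than in Glu negative cells (4.38 ± 2.13 CPM, n = 2), where no member was higher. Sst differed between the negative populations, at 1892 ± 262 CPM in NeuroD1 negative and 179 ± 114 CPM in Glu negative cells. Which of the lineages marked by these genes held the members cannot be told apart in bulk libraries.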

How the data were processed

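Libraries were amplified from 2 ng of RNA of sorted duodenal cells, per the labels' protocols. TopHat2 2.1.0, Cufflinks 2.2.1, CASAVA and the genome build GRCm38 are listed in the submitters' processing notes. The authors deposited 1 table of expected counts (estimated counts per gene), in which 848 genes had values that were not whole, none of them a member, and the deposited counts were rounded to whole numbers. Symbols and positions came from GENCODE vM21 for 36341 genes.

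Counts were tested in edgeR 4.0.16 (R 4.3.3) with filterByExpr and TMM scaling, by the quasi-likelihood test in a model of 4 group means and 11 libraries, at a Benjamini-Hochberg adjusted p under 0.05 over all 14332 genes tested. The SE is the log2 fold change divided by the square root of F. The Glu fit has 2 negative libraries and shares its spread with the other groups. Replicates differed by more than sampling noise, so none was merged.

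The members and lists were chosen with earlier results of these data known. The rule named the 5 members, up to 3 called genes by size of change and 2 abundant uncalled genes per list, close relatives, the 3 genes most alike (average logCPM of at least 3), neighbours and marker sums. Alternatives were RLE scaling, library totals, no filter and a stricter one (10 counts in 3 libraries), DESeq2 1.42.0, limma 3.58.1 voom, compared groups only, a replicate block, each library left out, and, added after seeing the data, leaving out mt-Rnr1 and mt-Rnr2. The fit was tested on simulated data. 1 relative on the lists is not reported here.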

Additional observations from a re-analysis of the deposited data

Results flagged for a closer look

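The difference between the 2 strains passed the threshold for 5 results, each with fitted values of opposite sign in the 2 strains. In the Glu comparison only Arg1 passed as lower, and Vcan was at -0.30 ± 0.46. On the log2 scale it was 6.95 for Tpbg, 6.38 for Arg1, 4.27 for Fmo2, 3.77 for Vcan and 5.90 for 2810025M15Rik. These genes were chosen on this contrast, so the values are a description. No group holds 4 or more libraries, so the test for a far value within a group was not run. NeuroD1_negative_6360 differed from its replicates by a chi-square statistic, divided by its degrees of freedom, of 127 and 135, or 11.3 and 14.4 without mt-Rnr1 and mt-Rnr2.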

How the results depend on the processing

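All 5 members kept a log2 fold change above 1 in the NeuroD1 comparison and below 0 in the Glu comparison under every alternative that gave a value. Of 484 values of the members under the alternatives 451 moved by less than their error, 33 moved further and 0 changed sign. The smallest margin was Vcan in the Glu comparison, at -0.03 without Glu_positive_4665. Of the list genes, 7 passed as higher in the NeuroD1 comparison and 4 with library totals. Of the 13 lower, 8 passed with limma voom. In the Glu comparison the 1 higher became 0 with library totals or compared groups only and 2 with no filter or DESeq2, and the 3 lower became 5 with limma voom and 1 with compared groups only. For the difference between strains the 0 lower became 1 with no filter. Leaving out 1 library gave 3 to 9 higher and 6 to 16 lower in the NeuroD1 comparison, and 0 to 2 higher and 1 to 3 lower in the Glu comparison. Wnt11 in the Glu comparison went from -5.27 to 0.13 without Glu_negative_5254 and to -6.22 without Glu_negative_4665. Arg1 was not called lower in Glu cells without either Glu negative library or with compared groups only. The cause was not tested.

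Deviations of same-numbered libraries correlated at 0.01 to 0.05, and those of differently numbered ones at -0.04 to 0.02. So few libraries per group cannot show whether the numbers pair the samples, and the main fit did not pair them. With a replicate block the list genes called were 6 higher and 12 lower in the NeuroD1 comparison, 1 and 2 in the Glu comparison and 0 and 0 for the difference, and 5 members kept their signs.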
